A study of Mus musculus with 24 samples.

Results

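The genes described here are the nuclear-encoded subunits of the mitochondrial respiratory chain and of ATP synthase. They were chosen by gene symbol alone, as every gene in the count table whose symbol begins with a complex I prefix (Ndufa, Ndufb, Ndufc, Ndufs or Ndufv with a number), is Sdha to Sdhd, or begins with Uqcr, with Cox and a subunit number from 4 to 8, or with Atp5. The rule found 89 members under 88 symbols among 55450 genes, of which 40 belong to complex I, 4 to complex II, 8 to complex III, 19 to complex IV and 18 to complex V. Atp5o occurs under 2 gene identifiers, and 4 members (Ndufa11b, Ndufb4c, Ndufs6b and Cox6c2) are annotated as processed pseudogenes. The symbol places Ndufa4 and Ndufa4l2 in complex I, although the Ndufa4 protein is known to sit in complex IV.

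Total RNA of liver, cerebellum and testes was sequenced from wild-type (WT) and Thumpd1 knockout (KO) mice kept on a C57/BL6 background. For the KO, CRISPR-Cas9 guides had been injected into C57BL/6N eggs, aimed at exons 1 and 4 of Thumpd1, which encodes the adaptor needed to acetylate cytidine in leucine and serine tRNAs. There were 4 libraries for each genotype and tissue, numbered 1 to 4 for WT and 5 to 8 for KO. Mice were 6 to 12 weeks old and of either sex, with littermates of the same age as controls. The study describes the libraries of a group as biological replicates, and the labels do not tie them to single animals. Neighbouring numbers (1 and 2, 3 and 4, 5 and 6, 7 and 8) were often nearest to each other, and whether they share an animal, which would leave 2 animals in a group, is not given in the sources used here. The p-values measure the spread between these libraries.

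The respiratory chain moves electrons from NADH through complex I, or from succinate through complex II, to complex III, cytochrome c and complex IV, and the proton gradient this builds drives ATP synthase, complex V. Most subunits are encoded in the nucleus and only a small core is encoded by mitochondrial DNA. Several complex IV subunits and cytochrome c exist as gene pairs, with one isoform used in most tissues and another used in male germ cells, where Cox6b2, Cox7b2, Cox8c and Cyct are known as the testis types.

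Library totals ran from 16353797 to 37889615 counts. Thumpd1 stood at 21.8 to 24.02 CPM (counts scaled to the library total, on a common scale) in WT cerebellum, 9.19 to 10.1 in WT liver and 24.3 to 26.3 in WT testes. In the KO it lay between 0 and 0.113 CPM in cerebellum, between 0 and 0.106 in liver and between 0.768 and 1.14 in testes, so every library fitted its label. Some libraries stood apart from the rest of their group. In testes, the median deviation of all genes with a transcript under 1 kb from the tissue mean was -0.21 on the log2 scale in KO replicate 7 and -0.21 in KO replicate 8, against 0.06 and 0.02 in KO replicates 5 and 6 and 0.08 to 0.12 in WT. The summed level of 8 choroid plexus markers was 1065 and 1093 CPM in cerebellum WT replicates 1 and 2 but 18.8 and 17.8 in WT replicates 3 and 4, and 22.5, 23.6, 367 and 367 in KO replicates 5 to 8. In liver WT replicate 4 the members together made up 6691 CPM, against 7543 to 7998 in the other WT libraries.

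The isoforms of complex IV differed between testes and the other tissues. Cox6b2, which encodes the testis type of a subunit that faces the intermembrane space, was read at 166, 186, 188 and 178 CPM in the 4 WT testes libraries. Its partner Cox6b1 was read at 19.9, 17.9, 14.8 and 16.4 CPM in the same libraries. In WT liver the order was turned around, with Cox6b2 at 0.062 to 0.248 CPM and Cox6b1 at 98.3 to 132 CPM. WT cerebellum held a little Cox6b2, at 1.91 to 3.47 CPM, beside 73.3 to 76.1 CPM of Cox6b1.

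The other pairs showed the same order. Cox7b2 was read at 62.3, 50.5, 49.2 and 50.5 CPM in WT testes, where the X-linked Cox7b was read at 4.36, 4.10, 3.71 and 4.40 CPM. Cox7b2 was at 0 in all 8 liver libraries, and Cox7b stood at 49.8 to 64.0 CPM in WT liver. Cox8c, the testis type of the smallest complex IV subunit, was read at 96.9, 100.1, 103.2 and 98.4 CPM in WT testes and at 0 in every liver and cerebellum library. Its partner Cox8a was at 15.2 to 17.6 CPM in WT testes and at 104 to 171 CPM in WT liver.

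Over the pooled libraries of a group, Cox6b2 was 1218-fold higher in WT testes than in WT liver and 62.3-fold higher than in WT cerebellum on the CPM scale. With 3 counts over the 4 libraries put in place of 0, Cox8c was on this scale at least 4059-fold higher in WT testes than in WT liver and at least 2848-fold higher than in WT cerebellum. Cox7b2 was at least 2168-fold higher than in liver by the same floor and scale, and 507-fold higher than in cerebellum, where only 9 counts were found over 4 libraries. The common isoforms differed in the opposite direction, with Cox7b 14.2-fold, Cox8a 8.88-fold and Cox6b1 6.92-fold higher in WT liver than in WT testes. These folds depend on the scaling. With TMM scaling over the 24 libraries, Cox6b2 was 638-fold, Cox8c at least 2127-fold and Cox7b2 at least 1136-fold higher in WT testes than in WT liver, and Cox7b was 27.1-fold, Cox8a 16.9-fold and Cox6b1 13.2-fold lower. The floors cover counting error only.

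Scaled by transcript length, the testis type made up most of each pair in testes. The testis-type share was 91.6% ± 1.36 (SD, n = 4) for Cox6b2, 95.9% ± 0.367 for Cox7b2, 87.9% ± 0.612 for Cox8c and 82.8% ± 0.522 for Cyct in WT testes. By counts with no length scaling the share of Cyct was 50.2%, and those of Cox6b2, Cox7b2 and Cox8c were 91.2%, 92.7% and 85.8%. Cyct, the testis cytochrome c, is not one of the 89 members and is given because it carries electrons to complex IV. Per kb of the principal transcript, Cox6b2 was at 307 ± 17.03 CPM in WT testes, Atp5b at 228 ± 8.39 and Cox8c at 218 ± 5.91, and this order depended on the length used. Per kb of all exons, Cox8c was at 218 ± 5.90 and Cox6b2 at 162 ± 8.99, both above Atp5b. In liver and cerebellum the highest member per kb of principal transcript was Atp5b, the catalytic subunit of ATP synthase, at 445 ± 26.0 and 364 ± 16.1 CPM per kb.

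**Figure D1:**
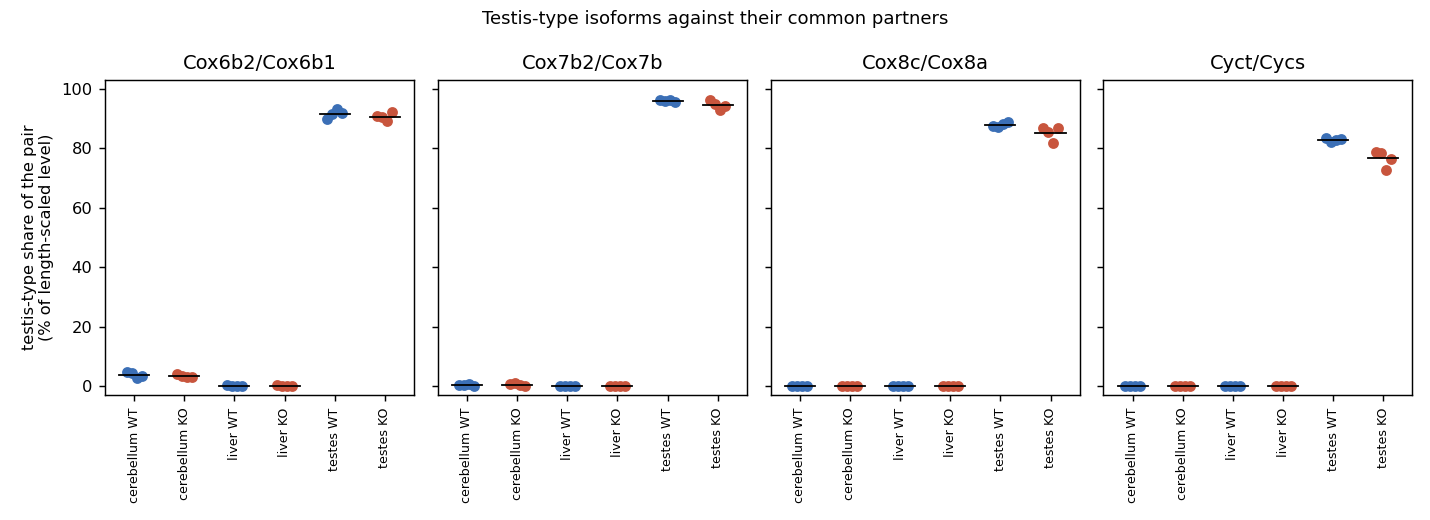
Testis-type share of each isoform pair (percent of the length-scaled level of both genes) in each library of the 6 groups, with lines at the group mean. The share lies between 72.5% and 96.3% in every testes library and between 0% and 4.75% in every liver and cerebellum library.

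The muscle-type and lung-type isoforms were low in all 3 tissues. The muscle type Cox6a2 was at 0 in every liver library and reached at most 0.579 CPM elsewhere, and Cox8b reached at most 0.463 CPM. Cox7a1, the muscle type of Cox7a2, was at 1.29 to 1.65 CPM in WT cerebellum, 0.259 to 0.809 in WT liver and 0.217 to 0.597 in WT testes. Cox4i2, the form of Cox4 known from lung, was at 0.996 to 1.38 CPM in WT cerebellum, where Cox4i1 was at 127 to 142 CPM.

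The promoters of 2 isoform pairs are shown because these genes have opposite tissue patterns. They are RefSeq sequences of GRCm38.p6, from 250 bases before to 50 bases after the start, and capitals mark a match to CCGGAAG or its reverse complement CTTCCGG, the core letters of the ETS factor Gabpa. The Cox6b1 promoter (minus strand, chr7:30626065-30626364) has 1 such match, which begins 28 bases before the start, and the promoters of Cox6b2 (minus strand, chr7:4753045-4753344), Cox7b (plus strand, chrX:106015450-106015749) and Cox7b2 (minus strand, chr5:71548156-71548455) have none.
Cox6b1: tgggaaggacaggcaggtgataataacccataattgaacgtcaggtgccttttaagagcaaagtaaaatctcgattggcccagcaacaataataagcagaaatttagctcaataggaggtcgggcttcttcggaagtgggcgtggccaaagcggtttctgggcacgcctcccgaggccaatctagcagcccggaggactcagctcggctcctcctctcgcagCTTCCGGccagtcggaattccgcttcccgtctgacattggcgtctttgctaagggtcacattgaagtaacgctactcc
Cox6b2: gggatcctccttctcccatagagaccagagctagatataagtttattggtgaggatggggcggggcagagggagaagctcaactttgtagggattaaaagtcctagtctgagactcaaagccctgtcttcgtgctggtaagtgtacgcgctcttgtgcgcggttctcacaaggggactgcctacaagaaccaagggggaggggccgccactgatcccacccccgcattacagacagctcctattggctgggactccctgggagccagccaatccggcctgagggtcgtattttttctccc
Cox7b: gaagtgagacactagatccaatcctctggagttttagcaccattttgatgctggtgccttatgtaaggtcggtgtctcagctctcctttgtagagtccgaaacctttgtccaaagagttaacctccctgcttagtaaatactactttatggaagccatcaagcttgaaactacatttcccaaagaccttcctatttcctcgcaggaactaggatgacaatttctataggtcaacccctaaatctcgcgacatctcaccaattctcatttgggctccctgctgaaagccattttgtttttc
Cox7b2: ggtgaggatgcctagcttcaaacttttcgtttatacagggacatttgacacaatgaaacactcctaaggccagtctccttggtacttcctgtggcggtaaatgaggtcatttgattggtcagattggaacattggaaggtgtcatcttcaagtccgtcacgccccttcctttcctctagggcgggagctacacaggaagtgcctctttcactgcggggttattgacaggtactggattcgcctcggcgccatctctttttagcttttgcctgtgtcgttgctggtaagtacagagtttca
Of 17492 genes with a promoter in the table, 66 were members. The letters CCGGAAG on either strand were found in 16 of the 66 members (24.2%) and in 12.9% of all genes, with Cox6b1, Cox8a and Sdhb among the members. The Nrf1 core GCATGCGC was found in 10 members (15.2%) and in 3.94% of all genes, and AAGATGGC, the core letters of Yy1, in 9 members (13.6%) and in 3.57% of all genes. TGACGTCA, the cyclic AMP response element, was found in 4 members (6.06%) and in 2.54% of all genes. All 4 were searched on both strands, and none of these strings contains another. These matches describe the letters in this window and are not binding sites.

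Across the 3 WT tissues, liver held the most subunit RNA. The members summed to 7553 ± 612 CPM in liver, 5099 ± 154 in cerebellum and 4639 ± 47.6 in testes (SD, n = 4). Complex V made the largest part in liver, with 2916 ± 211 CPM, and complex I the largest in testes, with 1479 ± 14.3 CPM. Complex II, which also belongs to the citric acid cycle, stood at 685 ± 44.9 CPM in liver, 367 ± 9.22 in cerebellum and 237 ± 4.48 in testes. With TMM scaling in place of CPM the log2 ratio of the testes sum to the cerebellum sum moved from -0.14 to 0.12, that of testes to liver from -0.70 to -1.63 and that of cerebellum to liver from -0.56 to -1.76. In bulk RNA, fewer cells of a type and less RNA per cell cannot be told apart.

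**Figure D2:**
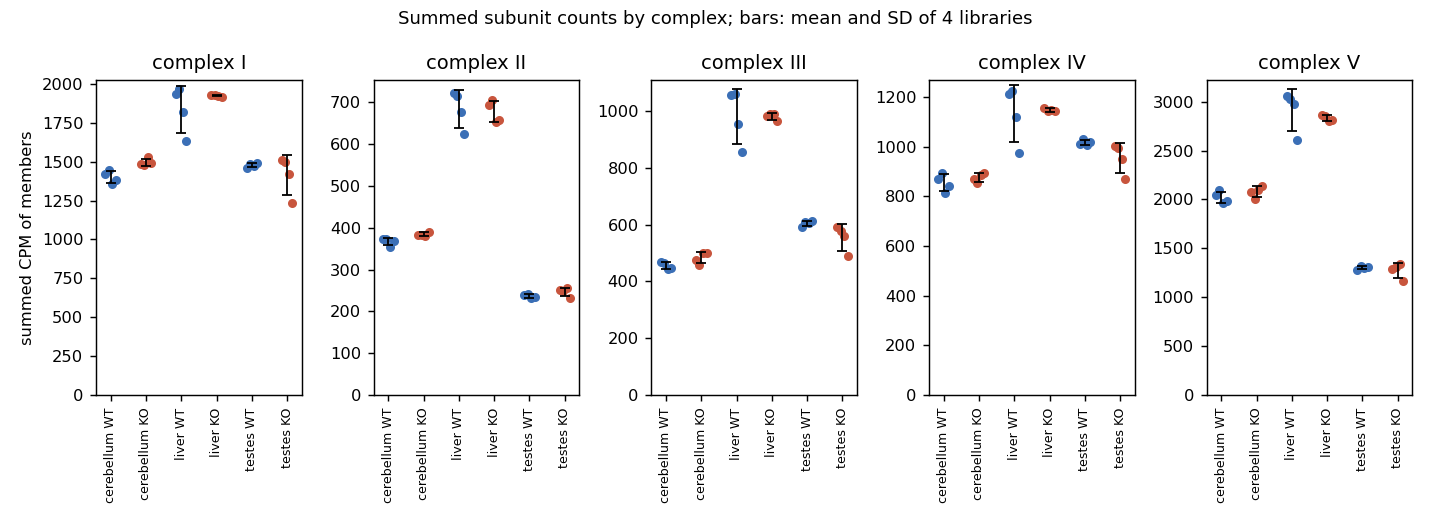
Summed CPM of the members of each complex in each library, by tissue and genotype, with the mean and SD of 4 libraries. Liver is highest for all 5 complexes, and testes KO replicate 8 and liver WT replicate 4 lie below the rest of their groups.

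With TMM scaling over the 24 libraries, 79 of 83 tested members differed between WT testes and WT liver by limma-voom (adjusted p under 0.05), where 89.7% of all genes did. Of these, 68 were lower and 11 higher in testes (33.9% and 55.8% of all genes), with a median log2 difference of -1.56 over the members and 0.87 over all genes. Quantile scaling moved the median of all genes to -0.26 and gave 69 lower and 9 higher members, where 91.3% of all genes passed. The 3 members highest against liver were Cox8c, Cox7b2 and Cox6b2. The next was Ndufa4l2, a relative of Ndufa4 known from low oxygen, at 19.4 to 25.4 CPM in WT testes and 1.07 to 1.40 in WT liver (log2 difference 3.20, SE 0.19). Ndufa4 itself was 3.95 lower on the log2 scale in testes (-3.95, SE 0.15), and Ndufb11, which is X-linked like Cox7b, differed by -4.001 (SE 0.09).

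The 5 core subunits followed by name were lower in WT testes than in WT liver, while Ndufv2, another core subunit of complex I, was higher (log2 difference 0.57, limma-voom adjusted p = 3.03e-06). The log2 difference was -0.87 for Ndufs1, the iron-sulphur subunit of complex I, -2.45 for Sdha, the flavoprotein of complex II, -1.13 for Uqcrc1 of complex III, -1.56 for Cox4i1 and -1.90 for Atp5b. Cerebellum was also below liver, with 77 members lower and 4 higher of 81 past the threshold (85.3% of all genes passed, 42.9% lower and 42.5% higher) and a median of -1.62. Testes and cerebellum were nearer to each other. There, 67 members passed (89.3% of all genes), 39 higher and 28 lower in testes (50.7% and 38.5% of all genes). Quantile scaling turned this balance to 31 higher and 39 lower, where 91.2% of all genes passed. The median then moved from 0.12 to -0.13 over the members and from 0.40 to -0.28 over all genes.

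In cerebellum, 6 of 81 tested members differed between KO and WT, against 6.44% of all 16225 genes tested. Of these, 5 rose, 4 of them in complex I, and 1 fell, while 3.93% of all genes rose and 2.51% fell. The median log2 change was 0.05 over the members and -0.006 over all genes, and 59 of the 81 values were above 0.

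Ndufv1, which carries the NADH site of complex I, was read at 82.4, 81.4, 75.6 and 76.4 CPM in WT and 97.4, 91.1, 99.1 and 91.9 in KO. All 4 KO libraries were above all WT libraries, with a log2 change of 0.26 (SE 0.05, adjusted p = 0.00666). Ndufb8 was read at 57.5, 59.9, 56.7 and 54.8 CPM in WT and 69.3, 64.9, 68.1 and 67.8 in KO, again without overlap (0.23, SE 0.04, adjusted p = 0.00834). It overlaps Gm20538 on its own strand and its count was not whole in 6 libraries, so its counts are uncertain. Ndufs6 (0.23, SE 0.06) and Ndufa8 (0.20, SE 0.06), both small complex I subunits, rose as well. Ndufs6 overlaps Mrpl36 on the other strand and its count was not whole in 6 libraries, so its counts are uncertain too. Cox6b1 of complex IV rose from 73.3 to 76.1 CPM in WT to 81.5 to 88.4 in KO (0.19, SE 0.04, adjusted p = 0.0131). Cox7a2, a small subunit of complex IV, was the member that fell, from 52.7, 57.3, 52.7 and 51.5 CPM to 46.6, 48.6, 45.8 and 46.2 (-0.21, SE 0.05, adjusted p = 0.0205). The ranges of WT and KO did not overlap for any of the 6, where 13.8% of all genes had ranges that did not overlap.

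The count in cerebellum changed with the fit and with the libraries used. A single fit over all 24 libraries with TMM scaling called 0 members and 0.86% of all genes, with 5 members at an unadjusted p under 0.05. Leaving out WT replicate 1 called 2 members and 2.59% of all genes, and leaving out KO replicate 6 called 13 and 14.4%. Of 17 alternatives, Ndufv1 and Ndufb8 passed in 15, Cox6b1 in 14, Cox7a2 in 11, Ndufa8 in 7 and Ndufs6 in 6. With neighbouring libraries summed, 0 members and 0.289% of all genes passed, and 12 members had an unadjusted p under 0.05. Some markers of other cells moved with genotype there, where 3.93% of all genes rose and 2.51% fell. Of 10 granule cell markers 4 fell and none rose, while the median log2 change over the 10 was -0.02. The sum of the 10 went from 5719 to 5801 CPM in WT to 5227 to 5523 in KO. Of 8 forebrain neuron markers 6 were tested and 3 rose, with a sum of 81.6 to 88.1 CPM in WT and 116 to 152 in KO, of 6 oligodendrocyte markers 2 rose, and choroid plexus markers differed between libraries within both genotypes as given above. The part of these cells in the results was not tested.

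In liver, 2 of 78 tested members passed the test, against 5.91% of 12816 genes. Both rose, while 2.79% of all genes rose and 3.12% fell. Cox7b was read at 59.2, 61.5, 64.0 and 49.8 CPM in WT and 70.8, 65.9, 71.0 and 75.0 in KO (log2 change 0.31, SE 0.07, adjusted p = 0.0243). Ndufb11, a membrane subunit of complex I, was read at 55.5, 56.2, 52.0 and 49.5 CPM in WT and 66.1, 67.2, 61.1 and 59.5 in KO (0.28, SE 0.07, adjusted p = 0.0401). The ranges of the groups did not overlap for either gene, as for 12.7% of all genes, and Ndufb11 overlaps Rbm10 on the other strand. The median over the 78 members was 0.08. Of 8 hepatocyte markers 2 rose, and their sum was 52369 to 68998 CPM in WT, 63224 and 64795 in KO replicates 5 and 6, and 83792 and 90493 in KO replicates 7 and 8. The part of this in the results was not tested. Without WT replicate 1, without WT replicate 2 or without KO replicate 5 no member was called. This is not set against the share of all genes called in those fits. DESeq2 called 8 (5 higher, 3 lower) and 11% of all genes, and the single fit over 24 libraries called 6 of 83 (1 higher, 5 lower) and 6.98% of all genes. Of 17 alternatives, Cox7b passed in 11 and Ndufb11 in 6, and Ndufb11 passed neither by edgeR nor with TMM in voom. With neighbouring libraries summed, 0 members and 0.0853% of all genes passed, and 3 members had an unadjusted p under 0.05.

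**Figure D3:**
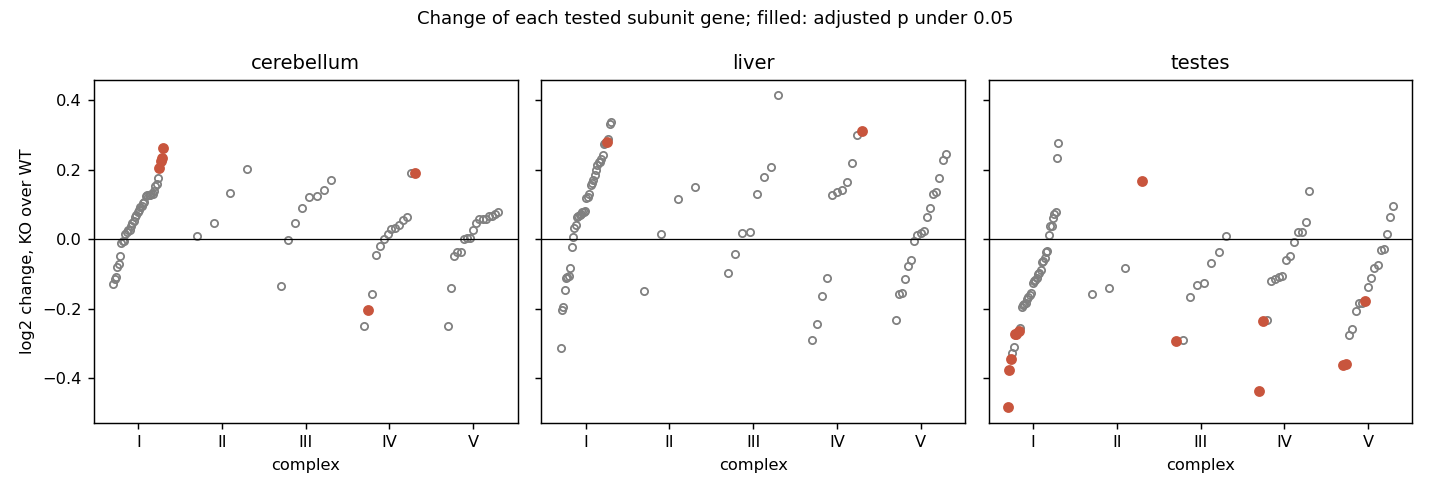
Log2 change (KO over WT) of each tested member by complex, in cerebellum, liver and testes. Filled points have an adjusted p under 0.05, 6 of 81 in cerebellum, 2 of 78 in liver and 13 of 81 in testes, where 64 of 81 values lie below 0.

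In testes, 13 of 81 tested members differed between KO and WT, where 20.5% of all 19329 genes tested did. Of these 12 fell and 1 rose, while 10.7% of all genes fell and 9.74% rose. The median log2 change was -0.12 over the members and 0.0001 over all genes, and 64 of 81 values were below 0. The direction of the median was the same in complexes I (-0.12), II (-0.11), III (-0.13), IV (-0.08) and V (-0.14). The summed CPM did not all go that way. Their log2 change was -0.066 for complex I, 0.055 for II, -0.13 for III, -0.094 for IV and -0.031 for V. Over all members it was -0.063, where the larger SD of the 2 groups was 0.10.

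In complex I, 6 members fell. Ndufa13, an accessory subunit, was read at 31.0, 32.9, 31.7 and 34.1 CPM in WT and 28.6, 26.7, 26.1 and 25.0 in KO, with no overlap between the groups, as for 28.6% of all genes in testes (-0.38, SE 0.07, adjusted p = 0.00666). Ndufa4l2 was read at 19.4, 25.4, 23.1 and 20.5 CPM in WT and 17.1, 16.4, 16.2 and 17.8 in KO (-0.48, SE 0.10, adjusted p = 0.00801). Both genes overlap a gene on the other strand, Ndufa13 with Tssk6 and Ndufa4l2 with Shmt2, and although the libraries were made with a stranded kit, the sources used here do not give the strand setting of the counting. Ndufb2 (-0.34, SE 0.10), Ndufa7 (-0.27, SE 0.07), Ndufv3 (-0.27, SE 0.08) and Ndufs6 (-0.27, SE 0.08) also passed, and the WT and KO ranges of Ndufb2 and Ndufv3 overlapped. Ndufb2 overlaps Braf on the other strand and Gm42420 on its own, so its counts are uncertain. Ndufv3 and Ndufs6 passed neither by edgeR nor with TMM in voom.

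In complex IV, Cox7a2 was read at 134.5, 123.7, 118.0 and 122.4 CPM in WT and 107.3, 101.9, 81.9 and 83.3 in KO. All KO libraries were lower than all WT libraries, and replicates 7 and 8 were lowest (-0.44, SE 0.09, adjusted p = 0.00915). Cox7a2 thus fell in both cerebellum and testes, while in liver it was read at 39.0 to 52.5 CPM in WT and 35.7 to 51.2 in KO. Cox8c fell from 96.9, 100.1, 103.2 and 98.4 CPM to 89.6, 84.3, 84.4 and 86.1 (-0.24, SE 0.05, adjusted p = 0.0102). The other testis types did not pass, with -0.009 (SE 0.06) for Cox6b2 and -0.23 (SE 0.16) for Cox7b2.

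In the remaining complexes, Uqcrq of complex III was read at 118, 119, 110 and 118 CPM in WT and 110, 107, 87.8 and 80.3 in KO (-0.29, SE 0.09, adjusted p = 0.0444). Atp5e, a small subunit of the ATP synthase stalk, fell from 32.0 to 37.1 CPM in WT to 26.7 to 29.9 in KO (-0.36, SE 0.07, adjusted p = 0.00852). Atp5mpl (-0.36, SE 0.11) and Atp5o (-0.18, SE 0.06) fell with overlapping ranges, and the Atp5o counts are uncertain, since a further Atp5o entry overlaps it and its count was not whole in 23 libraries. Sdha was the member that rose, from 114.0, 116.3, 109.9 and 114.6 CPM to 127.2, 124.5, 133.3 and 124.9 (0.17, SE 0.05, adjusted p = 0.0326). The change of Sdha did not pass by edgeR (adjusted p = 0.136) or DESeq2 (adjusted p = 0.133), nor by limma without any 1 of the WT libraries or without KO replicate 7 (adjusted p = 0.053 to 0.111).

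Single libraries weighed on these counts. Leaving out WT replicate 2, 3 or 4 left 5 members called, all lower, leaving out WT replicate 1 or KO replicate 7 left 7, all lower, and leaving out KO replicate 8 left 7, of which 2 were higher. Leaving out KO replicate 5 gave 18, with 1 higher. These counts are not set against the share of all genes called in the same fits. They do not show a change particular to the members. Of 18 alternatives, Cox7a2, Ndufa13 and Ndufa4l2 passed in 17, Cox8c and Atp5e in 16, and the other 8 members in 6 to 9.

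**Figure D4:**
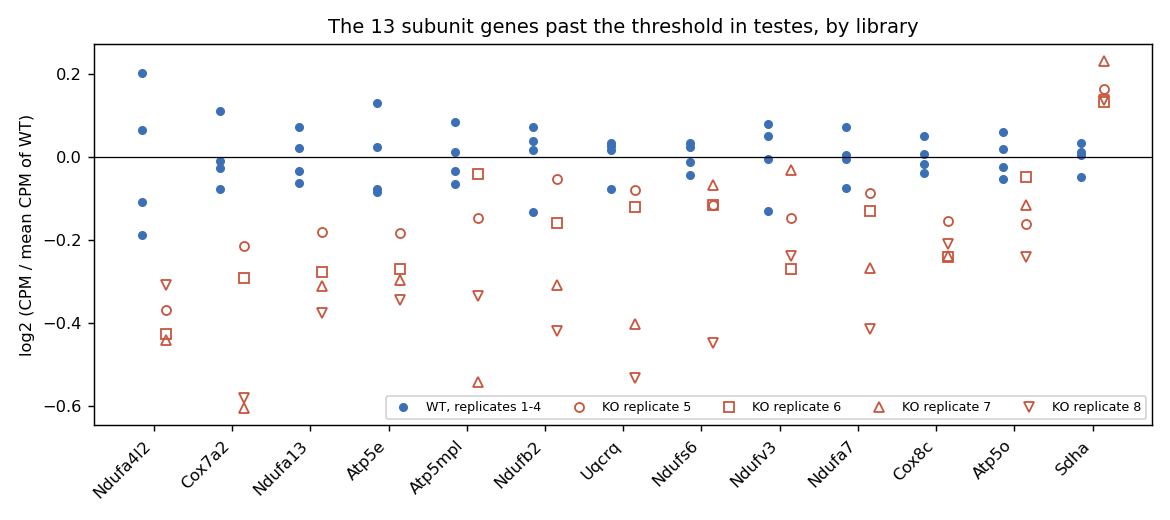
Log2 of the CPM over the mean CPM of WT for the 13 members past the threshold in testes, in each WT library (filled) and each KO library (open, one shape per replicate). KO replicates 7 and 8 are the lowest for Cox7a2, Uqcrq, Ndufa7, Ndufa13, Ndufb2, Atp5e and Atp5mpl, and Sdha lies above WT in all 4 KO libraries.

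Transcript length and KO replicates 7 and 8 were looked at beside these changes, and their part in them was not tested. The principal transcripts of the members were short, with a median of 765 bases against 2568 for all protein-coding genes. Over all genes in testes the median log2 change was -0.19 for transcripts under 1 kb, -0.08 for 1 to 2 kb, 0.02 for 2 to 4 kb and 0.10 over 4 kb. The 49 tested members under 1 kb had a median of -0.13, the 25 of 1 to 2 kb -0.11, the 5 of 2 to 4 kb 0.07 and the 2 over 4 kb -0.28. After the trend with length was removed from each library, 11 members were called, 6 higher and 5 lower, where 17.8% of all genes were, and the median over the members turned to 0.04. Without KO replicates 7 and 8 the median was -0.03, with 3 members higher and 8 lower of 81, where 19.2% of all genes were called.

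Of the 13 members called in testes, 7 kept their call without those 2 libraries and 5 kept it with the length trend removed. Ndufa13, Ndufa4l2, Cox7a2 and Sdha kept it under both. Cox7a2 changed by -0.26 without the 2 libraries (adjusted p = 0.00737 by limma) and by -0.23 without the length trend (adjusted p = 0.0207). Cox8c changed by -0.22 without the 2 libraries (adjusted p = 0.0092) but by -0.0009 without the length trend (adjusted p = 0.995). When libraries with neighbouring numbers were summed, which left 2 sums for each genotype, no member passed in any tissue, and 47 genes in all passed in cerebellum, 11 in liver and 2 in testes. Cox7a2 in testes then had a change of -0.44 and Ndufv1 in cerebellum 0.27. With those sums, 11 members in testes had an unadjusted p under 0.05.

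**Figure D5:**
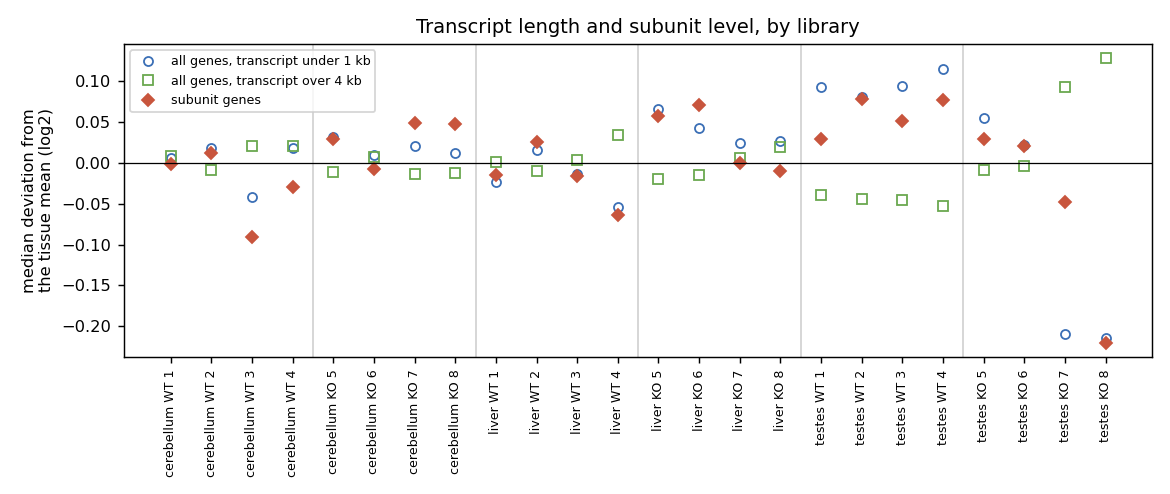
Median deviation from the tissue mean (log2) in each library, for all genes with transcripts under 1 kb (circles), all genes with transcripts over 4 kb (squares) and the members (diamonds). Short transcripts are at -0.21 in testes KO replicates 7 and 8, and the members are at -0.05 and -0.22 in the same libraries.

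Markers of some testis cells differed between the genotypes as well, where 9.74% of all genes rose and 10.7% fell. Of 12 Sertoli cell markers 10 rose in KO testes, and their sum went from 1287 to 1507 CPM in WT to 1630 to 2323 in KO, highest in replicate 7. Of 10 round spermatid markers 5 fell and none rose, with a sum of 1234 to 1286 CPM in WT and 984 to 1194 in KO. Of 10 elongating spermatid markers 5 fell, and their sum went from 16544 to 17368 CPM to 12520 to 15392, lowest in replicates 7 and 8. Other lists moved less, with 1 of 10 spermatocyte markers lower and a median log2 change of 0.07. Of 7 tested spermatogonia markers 1 rose, and of 7 Leydig cell markers 1 rose and 1 fell. The part of the cell mixture in the change of the members was not tested.

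The isoform pairs were compared within each testes library, so that the scaling of a library cancels, though not a trend with transcript length. The log2 ratio of Cox8c to Cox8a was 2.59 ± 0.08 in WT and 2.27 ± 0.26 in KO (difference -0.33, exact permutation p = 0.0286, adjusted p = 0.0571 over 4 pairs). That of Cyct to Cycs was 0.01 ± 0.05 in WT and -0.54 ± 0.23 in KO (difference -0.55, exact permutation p = 0.0286, adjusted p = 0.0571). Both were lower in 4 of 4 KO libraries, and 0.0286 is the smallest two-sided p that 4 against 4 libraries allow. For Cox7b2 to Cox7b the difference was -0.42 (exact permutation p = 0.114) and for Cox6b2 to Cox6b1 it was -0.19 (exact permutation p = 0.314). None passed after adjustment. The principal transcript of Cyct has 655 bases and that of Cycs 3123, against 458 and 550 for Cox8c and Cox8a. With the length trend removed the difference was -0.32 for Cyct to Cycs and -0.32 for Cox8c to Cox8a, and without KO replicates 7 and 8 it was -0.39 and -0.23 (exact permutation p = 0.133 for both, the smallest that 4 against 2 libraries allow). Cycs, the common cytochrome c, rose in testes from 22.0 to 27.1 CPM to 28.7 to 39.6 (0.49, SE 0.10, adjusted p = 0.0106 by limma), while Cyct was at 21.1 to 28.3 CPM in WT and 19.5 to 30.9 in KO.

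The KO effect was compared between tissues as an interaction, on 78 members measured in all 3 tissues. It was lower in testes than in liver for 24 members and higher for 0, where 7.92% of all genes were lower and 7.95% higher, and the median difference was -0.28. It was lower in testes than in cerebellum for 20 members and higher for 0 (7.42% and 7.13% of all genes), with a median of -0.23. Both comparisons share the testes libraries. Uqcrq had the difference -0.58 (SE 0.13) against liver and -0.50 (SE 0.15) against cerebellum, Ndufs6 -0.51 (SE 0.11) and -0.56 (SE 0.14), and Ndufv1 -0.21 (SE 0.06) and -0.39 (SE 0.07). Between cerebellum and liver 1 member passed, Ndufa8 (0.33, SE 0.10), where 7.67% of all genes did, 3.90% higher and 3.77% lower. It passed in 13 of 30 alternatives, with adjusted p from 0.0215 to 0.11. With the replicate number as a block 7 members passed, where 11.1% of all genes did.

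Without testes KO replicates 7 and 8, 7 members were lower against liver and 9 against cerebellum, with none higher, where 7.63% and 10% of all genes were called in either direction. With the length trend removed, 8 were lower and 4 higher against liver, and 6 lower and 1 higher against cerebellum, where 15.7% and 12.5% of all genes were called.

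The rest of the pathway was given by lists of related genes. Assembly factors build the complexes and do not stay in them. In cerebellum, where 6.44% of all genes passed, none of the listed factors of the 5 complexes did. In liver, where 5.91% of all genes passed, Sco2 rose (0.33) and Cox10 fell (-0.42) of 20 tested factors for complex IV. In testes, where 20.5% of all genes passed, Ndufaf3 fell (-0.39) of 14 tested for complex I, Ttc19 rose (0.27) of 6 for complex III, Sco2 fell (-0.50) and Cox15 rose (0.30) of 20 for complex IV, and Atpaf2 fell (-0.23) of 3 for complex V. Of 12 citric acid cycle genes, Cs fell in liver (-0.29) and Dlst rose in testes (0.21). Of 10 regulators of transcription in this pathway, Ppargc1a (0.67) and Gabpa (0.31) rose in liver and Tfam (-0.40) fell in testes.

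The 13 mitochondrially encoded subunits belong to complexes I, III, IV and V. In cerebellum 5 fell and none rose, where 2.51% of all genes fell, with a median of -0.38 and a sum of 14623 to 16542 CPM in WT and 11335 to 15106 in KO. In testes 7 rose and none fell, where 9.74% of all genes rose, with a median of 0.47 and a sum of 6077 to 7863 CPM in WT and 7312 to 8696 in KO, and in liver none passed (median 0.11). The summed ranges overlapped in both tissues. Examples in testes were mt-Nd5 (0.55, SE 0.08), mt-Nd2 (0.49, SE 0.08) and mt-Cytb (0.47, SE 0.07), and in cerebellum mt-Nd1 (-0.30, SE 0.07), mt-Nd3 (-0.60, SE 0.16) and mt-Atp8 (-0.97, SE 0.24).

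Of 89 members, 8 in cerebellum, 11 in liver and 8 in testes did not reach the minimum level for the test. These were the pseudogene entries Ndufa11b, Ndufs6b and Cox6c2, 1 of the 2 Atp5o entries and isoforms of other tissues such as Cox6a2 and Cox8b. Of the 89, 26 overlap an exon of a gene on the other strand, and 14 had counts that were not whole in 20 or more libraries, so that reads were shared with similar sequences.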

How the data were processed

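Expected counts per gene of 24 total RNA libraries (4 per genotype in liver, cerebellum and testes) were deposited by the authors, who aligned reads with STAR and quantified them with RSEM on mm10 with GENCODE M21. Ribosomal RNA had been depleted. In each library 12.3% to 16.6% of the values above 0 were not whole. Versions of STAR and RSEM are not given in the sources used here. Members, gene lists and tests were chosen with earlier results of these data known. The letters of the promoter motifs were settled after a first look at their shares, in which a longer form of the Nrf1 motif had been used.

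CPM are counts scaled to the library total on a common scale. KO and WT were compared within a tissue with limma 3.58.1 (voom, quantile normalization, as in the study's methods) on genes with at least 1 CPM in at least 4 of 8 libraries, with Benjamini-Hochberg adjustment and a threshold of 0.05. WT tissues and differences of the KO effect were fitted over 24 libraries in 6 group means with TMM scaling. Isoform ratios used 0.5 added counts and an exact two-sided permutation test. Levels per kb used the principal transcript of each gene. edgeR 4.0.16 and DESeq2 1.42.0, on rounded counts, were alternatives. Members were named by one rule: the called members of each complex, up to 5 per direction, the isoforms, the core subunits, and up to 3 called genes of each list. Apart from these, Ndufs6 in testes and Ndufa4, Ndufb11, Ndufa4l2 and Ndufv2 in the tissue comparison were named after their values were seen. Scripts were tested on simulated data.

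Same-numbered libraries of different tissues correlated by more than 0.1 in 6 of 24 pairs, and the main fits treated them as unpaired. Such weak correlation cannot settle whether they came from the same mouse. Within groups, no 2 libraries agreed within sampling noise (36 pairs). Libraries 1 and 2, 3 and 4, 5 and 6 or 7 and 8 were often nearest to each other, in cerebellum most of all, and the summed alternative was added for this reason after seeing the data, as were the removal of the length trend and of testes KO libraries 7 and 8.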

Additional observations from a re-analysis of the deposited data

Results flagged for a closer look

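In 3 of 106 groups of 4 values checked, 1 library lay far from the others, where chance gives about 1 in 20. Atp5b was at 413.0 CPM in testes WT replicate 1, with the next library at 442.3. Cox4i1 was at 102.6 CPM in testes KO replicate 8, with the next at 123.0. Uqcrq was at 110.0 CPM in testes WT replicate 3, with the next at 117.6.

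The KO effect differed between testes and liver, by the interaction test with adjusted p under 0.05 (limma), for these named members, all lower in testes on the log2 scale. In complex I the difference was -0.45 for Ndufa13, -0.45 for Ndufa7, -0.38 for Ndufa9, -0.49 for Ndufb2 and -0.51 for Ndufs6. In complexes II and III it was -0.37 for Sdhb, -0.45 for Uqcr10, -0.40 for Uqcrh and -0.58 for Uqcrq. In complex IV it was -0.32 for Cox4i1, -0.31 for Cox6a1, -0.43 for Cox7a2 and -0.33 for Cox7a2l, which encodes a supercomplex factor. In complex V it was -0.51 for Atp5e, -0.32 for Atp5h, -0.35 for Atp5l and -0.59 for Atp5mpl.

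Between testes and cerebellum, which share the testes libraries with the comparison above, the difference was -0.51 for Ndufa13, -0.47 for Ndufa7, -0.49 for Ndufb8, -0.56 for Ndufs6 and -0.39 for Ndufv1. It was -0.43 for Sdhb, -0.49 for Uqcr10, -0.39 for Uqcrc1, -0.30 for Uqcrfs1, -0.34 for Uqcrh and -0.50 for Uqcrq. It was -0.39 for Cox6a1, -0.33 for Atp5d, -0.47 for Atp5e, -0.47 for Atp5mpl and -0.35 for Atp5o. Between cerebellum and liver it was 0.33 for Ndufa8.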

How the results depend on the processing

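The count of members called between KO and WT moved by over 1.5 times under these alternatives. The percentages are of all genes called in the same fit. In cerebellum it went from 6 (6.44%) to 10 with sample quality weights (10.8%), to 0 in a single fit over 24 libraries (0.86%, with 5 members at an unadjusted p under 0.05) and to 0 with neighbouring libraries summed (0.289%, 12 unadjusted). In liver it went from 2 (5.91%) to 1 with edgeR (6.3%), 8 with DESeq2 (11%), 1 with TMM in voom (6.8%), 1 without a filter (1.87%), 8 with weights (13.3%), 6 in the single fit (6.98%), 1 with the length trend removed (6.05%) and 0 with summed libraries (0.0853%, 3 unadjusted). In testes it went from 13 (20.5%) to 5 without a filter (7.03%) and to 0 with summed libraries (0.0103%, 11 unadjusted). Leaving out 1 library gave 2 to 13 in cerebellum, 0 to 3 in liver and 5 to 18 in testes. These ranges are not set against the share of all genes in those fits.

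For the difference of the KO effect between testes and liver, 24 (15.9% of all genes) became 6 without a filter (2.28%). It became 12 with the length trend removed (15.7%) and 7 without testes KO replicates 7 and 8 (7.63%). In the same order, between testes and cerebellum 20 (14.5%) became 4 (2.63%), 7 (12.5%) and 9 (10%). Between cerebellum and liver 1 (7.67%) became 0 (0.807%), 3 (8.27%) and 7 (11.9%). Leaving out 1 library gave 16 to 34, 12 to 30 and 0 to 7, again without the share of all genes beside them. With the replicate number as a block the counts were 28 (18.8% of all genes), 22 (15.9%) and 7 (11.1%), the last moved from 1. For the WT tissues they were 78 (90.7%), 69 (90.5%) and 81 (87%). Whether same numbers mark the same mouse across tissues is not given (r from -0.19 to 0.23, over 0.1 in 6 of 24). The median r was 0.05 for same numbers and -0.005 for other pairs, which does not settle it. The WT tissue counts stayed within 1.5 times under every alternative run, with 77 to 79, 66 to 70 and 81 to 81 on leaving out 1 library. With another pseudocount, 1 library left out, the length trend removed or KO replicates 7 and 8 left out, the isoform ratios kept their direction. Leaving out 1 library gave -0.30 to -0.09 for Cox6b2, -0.59 to -0.29 for Cox7b2, -0.39 to -0.21 for Cox8c and -0.61 to -0.45 for Cyct. With TMM scaling the log2 ratio of the sums moved from 0.055 to -0.012 for complex II in testes (KO over WT). In WT it moved from -0.70 to -1.63 for testes over liver and from -0.14 to 0.12 for testes over cerebellum. For cerebellum over liver it moved from -0.56 to -1.76.

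Some sums and medians changed sign, as given above. Among the named members, changes of sign were limited to those that had not passed the test. In cerebellum Cox6b2 was at 0.0095 (edgeR), 0.012 (DESeq2), 0.028 (TMM), 0.019 (weights) and 0.018 (single fit). In liver Ndufs1 was at -0.026 (single fit), and Sdha at -0.047 (edgeR), -0.044 (DESeq2), -0.047 (TMM) and -0.10 (single fit). In testes Atp5b was at -0.037, -0.041, -0.037 and -0.044 under the same 4. With the length trend removed Cox4i1 was at 0.13, Cox6a1 at 0.10 and Cox6b2 at 0.21. Without KO replicates 7 and 8 Cox4i1 was at 0.0071, Cox7b2 at 0.13 and Cox8a at -0.047, and with weights Cox7b2 was at 0.069 and Cox8a at -0.014. With 1 library left out the ranges were -0.046 to 0.13 for Cox4i2 in cerebellum, -0.14 to 0.092 for Cox6b2 in cerebellum, -0.010 to 0.075 for Cox7b in cerebellum, -0.012 to 0.047 for Sdha in liver, -0.0948 to 0.0056 for Cox4i1 in testes, -0.020 to 0.12 for Cox6b1 in testes, -0.045 to 0.023 for Cox6b2 in testes and -0.079 to 0.075 for Cox8a in testes. The cause was not tested. Depth limits the genes near 0 CPM, where 3 counts are the floor.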
